A study of Mus musculus with 6 samples.

Results

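The NF-κB family was examined as 10 genes, taken by symbol from the 49585 genes of the deposited table. They comprise 5 subunit genes, Nfkb1, Nfkb2, Rel, Rela and Relb, and 5 genes of IκB proteins, Nfkbia, Nfkbib, Nfkbie, Nfkbiz and Bcl3. All 10 were among the 13766 genes with at least 1 FPKM (fragments scaled to gene length and library total) in at least 3 libraries, the genes that were tested. Poly(A) RNA came from Tregs, regulatory T cells defined by the factor Foxp3 that hold other immune cells in check, sorted from spleens of C57BL/6 mice aged 7 weeks as B220-negative, CD4+ and YFP+ cells, with CD25 added in the design text. The sorted cells were then cultured for 24 hours on antibodies to CD3 and CD28. There were 3 Bach2-cKO libraries, by that label from mice with a conditional knockout of the transcriptional repressor BACH2, and 3 WT libraries. The labels name neither the driver of the deletion nor the allele that carries YFP, and do not say whether each library is a different mouse. The p-values therefore cover the spread among these libraries alone, and that spread may be technical.

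NF-κB factors are dimers of 5 related subunits that wait in the cytoplasm, bound by IκB proteins. In T cells, the antigen receptor and CD28 act through BCL10 and MALT1 on the IκB kinases, which mark IκBα for destruction and free dimers of p50 with RelA or c-Rel. A slower branch, driven by TNF receptor family members through the kinase NIK, turns p100 into p52, the partner of RelB. The genes of several subunits and inhibitors are themselves targets of NF-κB, and c-Rel is known to be needed for Treg development.

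Read totals ran from 27703735 to 31976067 in the Bach2-cKO libraries and from 27697735 to 43884431 in the WT libraries, and each family gene held at least 1805 reads in each library, a counting error of at most 2.35%. Bach2 itself was at 88.9, 104.5 and 120.8 FPKM in Bach2-cKO libraries, against 112.0, 111.4 and 99.4 FPKM in WT libraries. A value summed over a whole gene cannot show the loss of part of it, so it does not check the labels, and each direction given here rests on them. Foxp3 was at 112, 104 and 154 FPKM in Bach2-cKO libraries and at 127, 108 and 113 FPKM in WT libraries. Markers of B cells, which also express NF-κB genes, were abundant despite the B220-negative sort. All 17 listed were detected, their summed level was 2493 to 3189 FPKM in Bach2-cKO libraries and 1855 to 2595 FPKM in WT libraries, and 6 of the 17 were called higher.

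The promoters of this family are shown because several carry the sites through which NF-κB can act on its own genes. RefSeq (GRCm38.p6) gave windows of 300 bases, from 250 before to 50 after a gene's start, for 7 of the 10 genes, all but Nfkb1, Relb and Nfkbiz. The κB consensus, a motif of 10 bases searched on both strands with overlapping matches counted, was found in 7 of the 9 windows of these genes (Nfkb2 has 3), those of Nfkbia, Nfkb2, Rel, Nfkbie and Bcl3, which are 5 of the 7 genes. The last 2 of the Nfkb2 windows overlap and share 1 match, the only match of the last, so that site is counted in both. Of all 32851 windows, 8.5% held it. Below are the windows of the inhibitor gene and the subunit gene that lay lower in Bach2-cKO libraries and carry a match, of Rela, which was lower and has none, and of Rel, which has a match and differed little. Capitals mark the matches.
Nfkbia (chr12:55492598-55492897, minus strand, GRCm38.p6): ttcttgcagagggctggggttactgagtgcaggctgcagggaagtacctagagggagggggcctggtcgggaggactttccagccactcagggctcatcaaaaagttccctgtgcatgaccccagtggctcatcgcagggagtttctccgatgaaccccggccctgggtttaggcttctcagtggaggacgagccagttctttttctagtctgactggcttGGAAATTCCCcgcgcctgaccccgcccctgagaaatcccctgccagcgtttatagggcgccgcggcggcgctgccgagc
Nfkb2 (chr19:46304487-46304786, plus strand, GRCm38.p6): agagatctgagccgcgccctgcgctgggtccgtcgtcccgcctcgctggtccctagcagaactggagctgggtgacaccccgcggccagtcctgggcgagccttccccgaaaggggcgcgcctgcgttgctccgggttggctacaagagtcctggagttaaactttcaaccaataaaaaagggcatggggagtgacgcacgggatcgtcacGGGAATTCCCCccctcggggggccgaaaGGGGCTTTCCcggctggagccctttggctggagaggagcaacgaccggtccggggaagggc
Rela (chr19:5637291-5637590, plus strand, GRCm38.p6): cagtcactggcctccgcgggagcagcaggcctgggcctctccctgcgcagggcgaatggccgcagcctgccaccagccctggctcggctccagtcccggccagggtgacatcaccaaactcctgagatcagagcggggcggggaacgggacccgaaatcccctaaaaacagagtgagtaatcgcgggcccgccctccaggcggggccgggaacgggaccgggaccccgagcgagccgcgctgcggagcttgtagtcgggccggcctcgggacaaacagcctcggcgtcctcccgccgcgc
Rel (chr11:23770920-23771219, minus strand, GRCm38.p6): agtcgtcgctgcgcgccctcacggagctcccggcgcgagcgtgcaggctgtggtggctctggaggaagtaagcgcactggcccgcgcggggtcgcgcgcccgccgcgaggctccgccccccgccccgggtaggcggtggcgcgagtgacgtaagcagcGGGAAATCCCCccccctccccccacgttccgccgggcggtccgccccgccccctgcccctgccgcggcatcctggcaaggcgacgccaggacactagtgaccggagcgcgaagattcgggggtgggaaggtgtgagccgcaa

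In Nfkbia the match began 29 bases before the start. In the first Nfkb2 window a pair of overlapping matches began 39 and 38 bases before the start, and another began 11 bases before it. In Rel a pair of overlapping matches began 92 and 91 bases before the start. AP-1 sites and the MAF recognition elements that BACH2 binds share the core TGANTCA with C or G at N. The search took any base at N, so it also counted other runs of letters. This wider pattern was found in 7.8% of all windows. In the family it was found in the Nfkbie window, as TGAGTCA, and in the second of the Nfkb2 windows, as TGAATCA. They began 156 and 210 bases before the start, and only the Nfkbie match has C or G at N. A match is a run of letters and shows no binding.

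Of the 10 genes, 2 fell in Bach2-cKO libraries, the inhibitor gene Nfkbia and the subunit gene Rela, and 0 rose (limma on log2(FPKM + 1), adjusted p under 0.05 over all tested genes). Of all tested genes, 8.31% were called lower and 7.02% higher. The 3 Bach2-cKO values lay below the 3 WT values for 5 of the 10, Nfkb2, Rela, Relb, Nfkbia and Nfkbiz, and above them for 0. Of all tested genes, 20.1% lay wholly below and 15.5% wholly above. The median log2 difference was -0.11 over the 10 genes and -0.017 over all tested genes. Limma-voom on recovered reads also called 2 lower and 0 higher, with Rela at an adjusted p of 0.0497. The count of lower genes was 1 with median-ratio scaling, with no filter on low values and with a block for replicate number. It was 0 with a score of B cell markers in the fit.

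**Figure D1:**
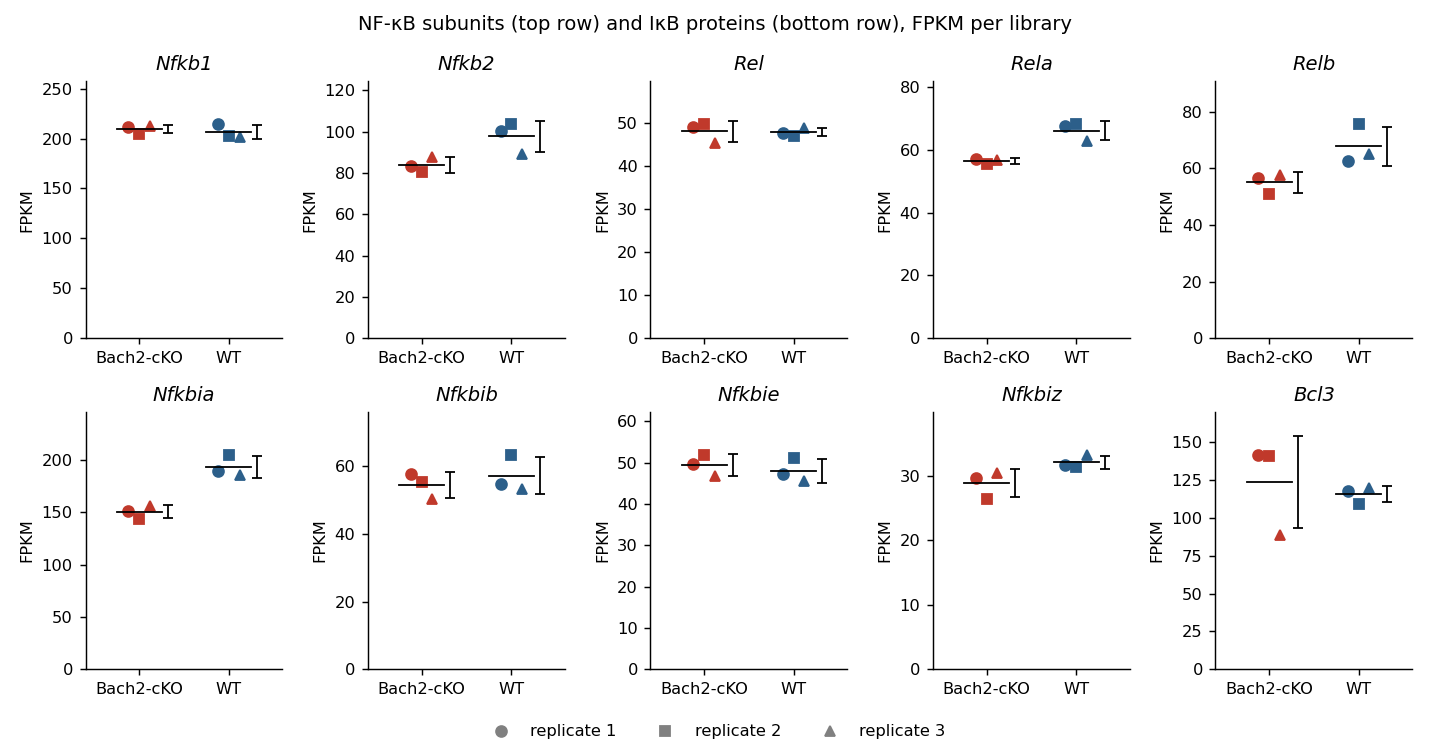
FPKM of each family gene per library, with Bach2-cKO left and WT right in each panel; markers show the replicate number, lines the mean and bars the SD over 3 libraries, and each axis starts at 0. Nfkbia, Rela, Relb, Nfkb2 and Nfkbiz have all Bach2-cKO values below all WT values, and Bach2-cKO replicate 3 stands apart for Bcl3 at 88.8 FPKM.

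Nfkb1, on chromosome 3 (GRCm38, 135584655 to 135691547), encodes p105 and its product p50, the common partner of RelA and c-Rel. It was the most abundant subunit transcript, at 211, 205 and 212 FPKM in Bach2-cKO libraries and at 215, 202 and 202 FPKM in WT libraries. The groups overlapped, with a log2 difference of 0.022 and a 95% interval of -0.10 to 0.15 (limma adjusted p = 0.820). Rel, on chromosome 11 (23736847 to 23770970), encodes c-Rel. It was at 48.9, 49.7 and 45.2 FPKM in Bach2-cKO libraries and at 47.6, 46.9 and 48.7 FPKM in WT libraries. These groups also overlapped, with a log2 difference of 0.0052 (95% interval -0.14 to 0.15, limma adjusted p = 0.966).

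Rela, on chromosome 19 (5637483 to 5648130), encodes p65, the main activating partner of p50. Its level was 57.0, 55.4 and 56.8 FPKM in Bach2-cKO libraries, against 67.4, 68.2 and 62.6 FPKM in WT libraries. The Bach2-cKO values were close together and all lay below WT, at means of 56.4 ± 0.917 and 66.1 ± 3.01 FPKM (SD, n = 3 each). Rela fell by 0.22 on the log2 scale (SE 0.058, limma adjusted p = 0.0409). This call is near the threshold: leaving out Bach2-cKO replicates 1, 2 and 3 in turn gave adjusted p-values of 0.102, 0.140 and 0.0548, leaving out WT replicates 1 and 2 gave 0.134 and 0.113, and median-ratio scaling gave 0.0549, while the log2 difference stayed between -0.26 and -0.20. With each of these 5 libraries left out, 1 family gene was called lower. In bulk RNA, fewer cells of a type and less RNA per cell cannot be told apart.

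Both genes of the slower branch lay lower without passing the test. Relb, on chromosome 7 (19606217 to 19629438), encodes the partner of p52. It was at 56.7, 51.0 and 57.6 FPKM in Bach2-cKO libraries and at 62.7, 75.7 and 65.0 FPKM in WT libraries. The groups did not overlap, and the log2 difference was -0.29 (SE 0.087, 95% interval -0.50 to -0.089, limma adjusted p = 0.0621). Nfkb2, also on chromosome 19 (46304737 to 46312090), encodes p100 and p52. It had 83.3, 80.3 and 87.7 FPKM in Bach2-cKO libraries and 100.2, 103.7 and 89.2 FPKM in WT libraries. Bach2-cKO replicate 3 and WT replicate 3 were close to each other, and the log2 difference was -0.22 (SE 0.073, limma adjusted p = 0.0868). Without WT replicate 3 it was -0.28 and was called (adjusted p = 0.0458). In the other 12 alternative settings Nfkb2 was not called, with a limma adjusted p of up to 0.309. The end of Nfkb2 overlaps Psd on the opposite strand, which was at 12.6, 13.1 and 12.4 FPKM in Bach2-cKO libraries and at 21.1, 21.7 and 16.9 FPKM in WT libraries. The sources used here do not state whether counting used strand, so reads of the pair cannot be told apart.

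Among the inhibitors, Nfkbia had the largest difference. It lies on chromosome 12 (55489411 to 55492647) and encodes IκBα, the inhibitor that is degraded within minutes of stimulation and made again under NF-κB control. Its level was 152, 144 and 156 FPKM in Bach2-cKO libraries, against 189, 205 and 186 FPKM in WT libraries. All Bach2-cKO values were below all WT values, with a gap between the groups larger than the spread within either. Nfkbia averaged 150.4 ± 6.18 FPKM in Bach2-cKO libraries and 193 ± 10.4 FPKM in WT libraries (SD, n = 3 each), a mean lower by 22.2%. Nfkbia fell by 0.36 on the log2 scale (SE 0.063, limma adjusted p = 0.00982). It was called with any 1 library left out (adjusted p from 0.0121 to 0.0450), and once a score of B cell markers entered the fit the difference was -0.41 with an adjusted p of 0.128.

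The other classical IκB genes overlapped between the groups. Nfkbib, on chromosome 7 (28758251 to 28767512), encodes IκBβ. It was at 57.7, 55.5 and 50.3 FPKM in Bach2-cKO libraries and at 54.7, 63.4 and 53.3 FPKM in WT libraries (log2 difference -0.066, 95% interval -0.27 to 0.13, limma adjusted p = 0.648). It shares exon sequence with Sirt2 on the other strand, which was at 78.9 to 83.9 FPKM in Bach2-cKO libraries and 81.4 to 85.7 FPKM in WT libraries. Nfkbie, on chromosome 17 (45555716 to 45563169), encodes IκBε. It had 49.6, 51.9 and 46.8 FPKM in Bach2-cKO libraries and 47.4, 51.3 and 45.6 FPKM in WT libraries (log2 difference 0.041, 95% interval -0.12 to 0.20, limma adjusted p = 0.733).

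The nuclear IκB proteins bind p50 or p52 homodimers on DNA and adjust transcription rather than holding dimers in the cytoplasm. Nfkbiz, on chromosome 16 (55811375 to 55838899), encodes IκBζ and was the least abundant family gene. It was at 29.6, 26.4 and 30.5 FPKM in Bach2-cKO libraries and at 31.7, 31.3 and 33.3 FPKM in WT libraries, apart by less than 1 FPKM at the nearest values (log2 difference -0.15, limma adjusted p = 0.215). Bcl3, on chromosome 7 (19808462 to 19822770), had 142, 141 and 88.8 FPKM in Bach2-cKO libraries and 118, 110 and 120 FPKM in WT libraries. A pair of Bach2-cKO libraries thus lay above all WT libraries, and replicate 3 lay below them all. The log2 difference was 0.067 with a 95% interval of -0.33 to 0.46, the widest of the family (limma adjusted p = 0.829). Without Bach2-cKO replicate 3 it was 0.29 and Bcl3 was called higher (adjusted p = 0.0240). Without Bach2-cKO replicate 1 or 2 it was -0.046 or -0.043.

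**Figure D2:**
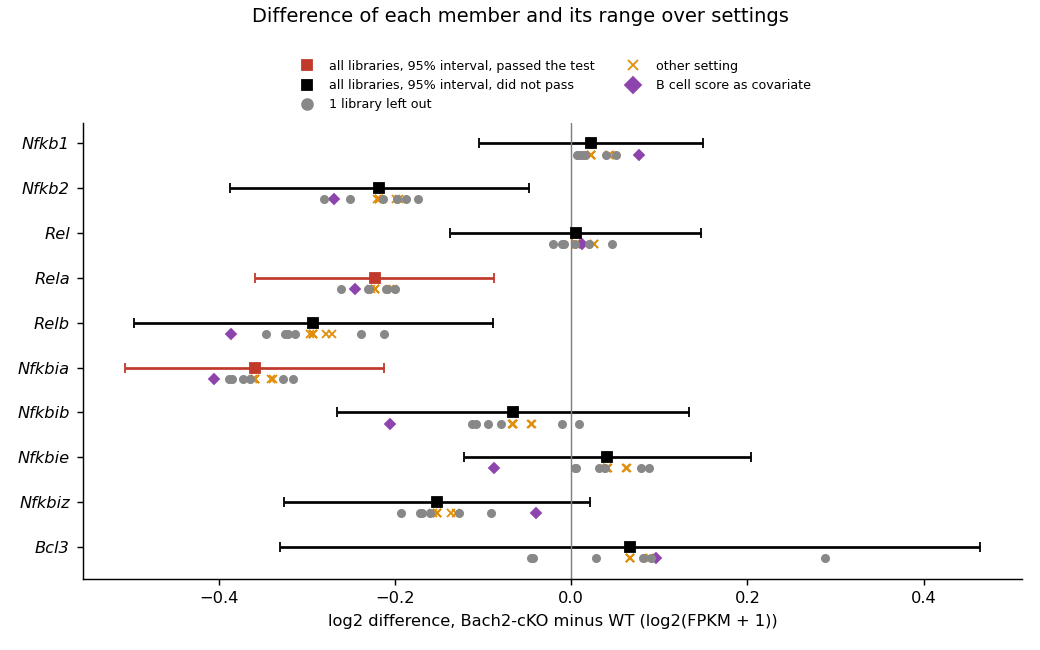
Log2 difference on the log2(FPKM + 1) scale, Bach2-cKO minus WT, of each family gene; squares and bars are the estimate and 95% interval from all libraries (red where the test was passed), and small symbols under them the estimate in each other setting. Nfkbia and Rela are red at -0.36 and -0.22, and Bcl3 lies between -0.046 and 0.29 with 1 library left out.

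Shares of the subunit transcripts were taken from the same FPKM values and are not a further result. Per library, the summed FPKM of the 5 subunit genes was 457, 441 and 460 in Bach2-cKO libraries and 493, 497 and 467 in WT libraries. Nfkb1 made up 46.2%, 46.4% and 46.2% of it in Bach2-cKO libraries and 43.6%, 40.7% and 43.2% in WT libraries. Rela made up 12.4% to 12.6% in Bach2-cKO libraries and 13.4% to 13.7% in WT libraries. The share of Nfkb1 was thus higher, and that of Rela lower, in each Bach2-cKO library than in any WT library, as a description of sums over chosen genes with no test. Relb made up 11.6% to 12.5% in Bach2-cKO libraries and 12.7% to 15.2% in WT libraries. Rel overlapped, at 9.8% to 11.3% in Bach2-cKO libraries and 9.4% to 10.4% in WT libraries. Nfkb2 met at 19.1%, with 18.2% to 19.1% in Bach2-cKO libraries and 19.1% to 20.9% in WT libraries. FPKM compares genes per length, with the gene lengths the authors used.

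Ratios within a library do not depend on its total. Nfkbia over Nfkb1 was 0.717, 0.702 and 0.734 in Bach2-cKO libraries and 0.882, 1.01 and 0.919 in WT libraries. Nfkbia over Rela was 2.66, 2.60 and 2.75 in Bach2-cKO libraries and 2.81, 3.01 and 2.96 in WT libraries. Rel over Rela was 0.858, 0.898 and 0.796 in Bach2-cKO libraries and 0.707, 0.687 and 0.778 in WT libraries. These 3 ratios did not overlap between the groups. Relb over Nfkb2 did overlap, at 0.680, 0.635 and 0.656 in Bach2-cKO libraries and 0.626, 0.730 and 0.728 in WT libraries. How often ratios of other genes separate the groups was not measured. The summed Nfkb2 and Relb over the summed Nfkb1, Rela and Rel was 0.441, 0.424 and 0.462 in Bach2-cKO libraries and 0.494, 0.565 and 0.492 in WT libraries, also without overlap. The 5 IκB genes over the 5 subunit genes gave 0.941, 0.949 and 0.810 in Bach2-cKO libraries and 0.895, 0.927 and 0.936 in WT libraries, which overlapped, with Bach2-cKO replicate 3 the lowest.

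**Figure D3:**
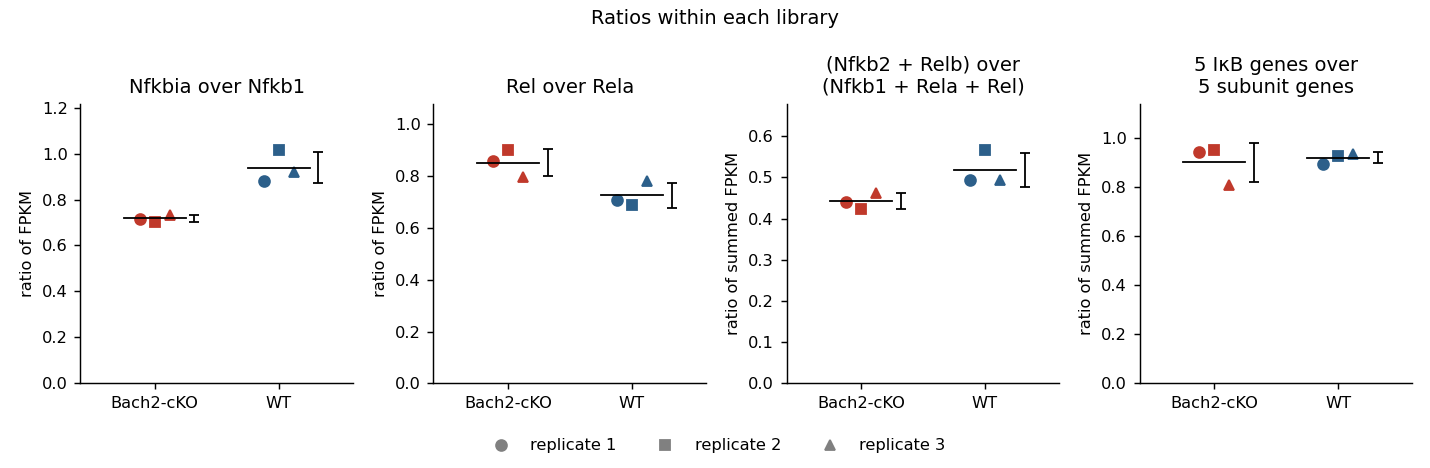
Ratios of FPKM within each library, Bach2-cKO left and WT right, with markers for the replicate, lines for the mean and bars for the SD over 3 libraries. Nfkbia over Nfkb1 is 0.702 to 0.734 in Bach2-cKO libraries and 0.882 to 1.01 in WT libraries, while the ratio of all IκB to all subunit genes overlaps.

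Upstream of the family, single genes of the antigen receptor module moved strongly in opposite directions. Of 11 genes counted for it, 1 rose, 1 fell and 9 did not pass, with a median log2 difference of -0.0014. Of all tested genes, 7.02% were called higher and 8.31% lower, the shares to set beside this and each later list count. Malt1, a protease and scaffold that acts with BCL10, rose to 74.5, 72.3 and 69.6 FPKM in Bach2-cKO libraries, against 39.0, 38.4 and 45.4 FPKM in WT libraries (log2 difference 0.81, SE 0.078, limma adjusted p = 0.000968). Prkcq, which encodes PKCθ, a kinase that acts downstream of the receptor and CD28, fell to 37.0, 33.2 and 34.4 FPKM in Bach2-cKO libraries, against 67.6, 66.4 and 68.1 FPKM in WT libraries (log2 difference -0.93, SE 0.062, adjusted p = 0.000270). Both are separated by more than the spread within either group. Bcl10 was at 47.1 to 49.7 FPKM in Bach2-cKO libraries and 46.7 to 48.4 FPKM in WT libraries.

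Of 11 genes of the IκB kinases and related kinases, 0 rose, 2 fell and 9 did not pass. Ikbke, which encodes the IKK-related kinase IKKε, fell to 81.0, 73.5 and 83.7 FPKM in Bach2-cKO libraries, against 146, 131 and 136 FPKM in WT libraries (log2 difference -0.78, SE 0.071, limma adjusted p = 0.000775). Map3k14, which encodes NIK, fell by 0.26 (adjusted p = 0.0376), a call lost on leaving out any of 5 libraries: the adjusted p was 0.0882, 0.120 and 0.0616 for Bach2-cKO replicates 1, 2 and 3, and 0.114 and 0.104 for WT replicates 1 and 2. The core catalytic gene Ikbkb was at 79.7, 76.7 and 78.4 FPKM in Bach2-cKO libraries and 90.4, 90.0 and 86.9 FPKM in WT libraries, with no overlap and an adjusted p of 0.0512. Chuk, its partner, was at 62.8 to 67.3 FPKM in Bach2-cKO libraries and 58.7 to 63.1 FPKM in WT libraries.

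Of 15 adaptors of the TRAF, cIAP and RIP families, 0 rose, 2 fell and 13 did not pass. Traf1, an adaptor that is itself an NF-κB target, fell to 161, 139 and 143 FPKM in Bach2-cKO libraries, against 209, 216 and 198 FPKM in WT libraries (log2 difference -0.49, SE 0.072, limma adjusted p = 0.00473). Birc2, which encodes the ubiquitin ligase cIAP1, fell by 0.30 (adjusted p = 0.0108, or 0.0522 without Bach2-cKO replicate 2). Traf2 and Traf3, which hold NIK at a low level, differed by -0.072 and 0.023 on the log2 scale and were not called. Myd88, the adaptor of Toll-like and IL-1 family receptors, was at 41.7, 40.8 and 37.2 FPKM in Bach2-cKO libraries and 35.2, 35.8 and 32.8 FPKM in WT libraries, without overlap (adjusted p = 0.0977, or 0.0497 without Bach2-cKO replicate 3). Ripk2, a kinase downstream of NOD receptors, differed by -0.29 (adjusted p = 0.183, or 0.0482 without WT replicate 3). Neither Myd88 nor Ripk2 was called in any other alternative setting, where the limma adjusted p reached 0.519 and 0.406.

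The other negative regulators were divided. Of 20 listed inhibitors and ubiquitin editors, 2 rose, 4 fell and 14 did not pass, with a median log2 difference of 0.034. Tnfaip3, which encodes the deubiquitinase A20, fell to 73.1, 70.2 and 76.2 FPKM in Bach2-cKO libraries, against 108, 99.7 and 90.2 FPKM in WT libraries (log2 difference -0.43, SE 0.077, limma adjusted p = 0.0101). Its partner Tnip1 fell to 75.5, 66.0 and 78.2 FPKM in Bach2-cKO libraries, against 115, 115 and 109 FPKM in WT libraries (log2 difference -0.62, adjusted p = 0.00218). Neither gene overlapped between the groups. Traf3ip3 fell by 0.76 and the LUBAC subunit gene Rbck1 by 0.23 (limma adjusted p = 0.000528 and 0.0267). Rbck1 lost its call on leaving out any library but Bach2-cKO replicate 3. N4bp1 rose by 1.06, at 58.6, 58.5 and 60.8 FPKM in Bach2-cKO libraries and 29.0, 24.6 and 30.7 FPKM in WT libraries. Otulin, the linear deubiquitinase, rose by 0.49 (limma adjusted p = 0.0265). Leaving out any of 4 libraries (Bach2-cKO replicates 1 and 2, WT replicates 1 and 3) gave a count of 1 in place of 2 for genes of this list that rose. There N4bp1 was still called and Otulin was not. The same held with no filter on low values and with a score of B cell markers in the fit.

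A pair of further IκB-like genes showed the same order without passing. Nfkbid, which encodes the nuclear protein IκBNS, known to act with c-Rel on Foxp3, was at 46.0, 47.6 and 50.1 FPKM in Bach2-cKO libraries and 54.7, 68.6 and 54.6 FPKM in WT libraries (log2 difference -0.30, limma adjusted p = 0.0823). Nfkbil1 was at 15.8, 14.9 and 13.2 FPKM in Bach2-cKO libraries and 17.9, 17.0 and 17.2 FPKM in WT libraries (adjusted p = 0.111).

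**Figure D4:**
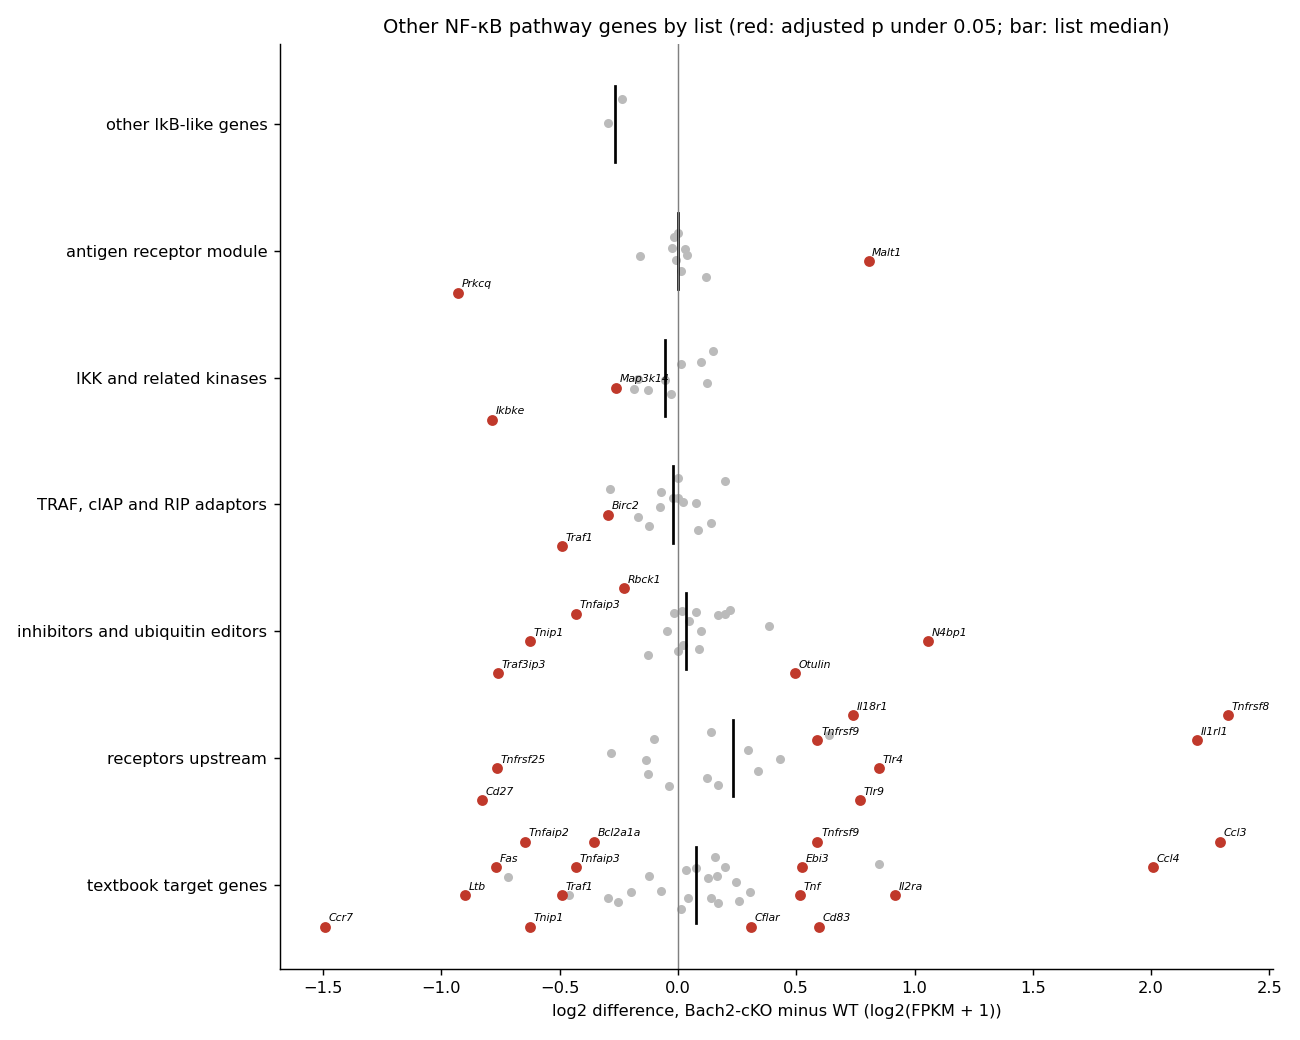
Log2 difference on the log2(FPKM + 1) scale, Bach2-cKO minus WT, of the tested genes in each pathway list; red points passed the test and are named, grey points did not, bars are list medians, and vertical placement within a list carries no value. Malt1 and N4bp1 lie right and Prkcq, Ikbke and Traf3ip3 left in lists whose medians lie between -0.054 and 0.034. The receptor list has a median of 0.23.

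Receptors that feed NF-κB leaned higher: of 20 listed, 6 rose, 2 fell and 12 did not pass, with a median log2 difference of 0.23. Of those that rose, Tlr4 and Tlr9 differed by 0.85 and 0.77 (limma adjusted p = 0.00635 and 0.00879). Il1rl1, which encodes the IL-33 receptor ST2, rose to 95.4, 91.2 and 77.1 FPKM in Bach2-cKO libraries, against 19.9, 14.2 and 21.8 FPKM in WT libraries (log2 difference 2.19, limma adjusted p = 0.000329). Il18r1, a receptor chain for IL-18, rose by 0.74 (adjusted p = 0.00330). Tnfrsf8, which encodes CD30, rose by 2.32 and was at 26.6, 23.6 and 13.96 FPKM in Bach2-cKO libraries and 2.93, 2.37 and 5.13 FPKM in WT libraries. Tnfrsf9, which encodes 4-1BB, was at 586, 545 and 571 FPKM in Bach2-cKO libraries and 355, 324 and 462 FPKM in WT libraries (log2 difference 0.59, limma adjusted p = 0.0196; named after its values were seen). Cd27 fell by 0.83 and Tnfrsf25, the death receptor DR3, by 0.77 (limma adjusted p = 0.00176 and 0.0163). Leaving out any of 3 libraries (Bach2-cKO replicate 1, WT replicates 1 and 2) gave a count of 1 in place of 2 for receptors that fell. There Cd27 was still called and Tnfrsf25 was not. The same held with no filter on low values and with a block for replicate number.

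Genes known as NF-κB targets did not move one way. Of 37 tested, 8 rose, 8 fell and 21 did not pass, with a median log2 difference of 0.075. The chemokine genes Ccl3 and Ccl4 rose by 2.29 and 2.01, Il2ra by 0.92 and the maturation marker gene Cd83 by 0.60. Ccr7 fell by 1.49, Ltb by 0.90 and the death receptor gene Fas by 0.77, beside Tnip1, Traf1 and Tnfaip3. Icam1, a target in many cell types, was at 53.9 to 58.7 FPKM in Bach2-cKO libraries and 52.2 to 57.3 FPKM in WT libraries, and Birc3 at 196 to 212 FPKM in Bach2-cKO libraries and 217 to 220 FPKM in WT libraries (limma adjusted p = 0.779 and 0.193). The count of targets that rose, 8, was 5 and 3 on leaving out Bach2-cKO replicates 1 and 2 in turn, and 3 on leaving out WT replicate 1. Several of these targets, among them Cd83 and Ltb, are also expressed by B cells.

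Over all lists, 109 distinct pathway genes were tested, of which 16 rose, 16 fell and 77 did not pass. Over all 13766 tested genes the shares were 7.02% higher and 8.31% lower. The lists were chosen with earlier results of these data known. Prkcq, Malt1, Ikbke, Traf3ip3, N4bp1, Il1rl1, Il2ra and Ccr7 kept their calls in all 13 alternative settings, the B cell score included. Traf1, Tnip1 and Tnfaip3 kept theirs in 12, all but the B cell score, with log2 differences of -0.46, -0.54 and -0.40 and adjusted p-values of 0.132, 0.0946 and 0.191 there. Cd27, Fas, Il18r1, Tnfrsf8, Birc2 and Map3k14 also lost their calls with that score, at adjusted p-values of 0.0805, 0.0839, 0.0655, 0.0504, 0.181 and 0.191. With it, the counts were 1 higher and 1 lower for the targets, 1 and 0 for the receptors, 1 and 1 for the inhibitors and ubiquitin editors, 0 and 0 for the adaptors and 0 and 1 for the kinases. With no filter on low values, 3 targets were called higher.

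T cell markers leaned lower and B cell markers higher in Bach2-cKO libraries, with exceptions in both lists. Of 17 B cell markers, 6 rose and 11 did not pass, with a median log2 difference of 0.39 and sums that overlapped between the groups. Of 13 T cell markers, 4 fell (Lck, Cd5, Cd3d and Cd3g) and 0 rose, with a median log2 difference of -0.28 and a summed level of 2456 to 2849 FPKM in Bach2-cKO libraries and 3134 to 3444 FPKM in WT libraries. Cd247 went the other way, at 101 to 108 FPKM in Bach2-cKO libraries and 86.6 to 96.7 FPKM in WT libraries, and was not called (limma adjusted p = 0.079). The mean centred log2 level of the T cell markers was -0.14, -0.23 and -0.041 in Bach2-cKO libraries and 0.11, 0.065 and 0.22 in WT libraries. That of the B cell markers was 0.055, 0.39 and 0.18 in Bach2-cKO libraries and -0.36, 0.052 and -0.32 in WT libraries, so Bach2-cKO replicate 1 and WT replicate 2 nearly met. The part of cell makeup in the falls of Nfkbia and Rela was not tested. Of 6 plasma cell markers tested, 4 were called higher (Mzb1, Xbp1, Jchain and Derl3), and Irf4 and Sdc1 were not called. Sdc1 was at 8.35, 6.42 and 10.45 FPKM in Bach2-cKO libraries and 7.44, 9.70 and 8.85 FPKM in WT libraries. Tnfrsf17 was under 1 FPKM in each library. The plasma cell markers summed to 449 to 593 FPKM in Bach2-cKO libraries and 271 to 307 FPKM in WT libraries. Of these sums, Xbp1 alone gave 210 to 274 FPKM in Bach2-cKO libraries and 112 to 145 FPKM in WT libraries. Of 10 myeloid markers, Cd14, Clec4a2, Csf1r and Itgam were under 1 FPKM in each library, and none of the 4 tested was called. The myeloid markers summed to 29.9 to 79.9 FPKM in Bach2-cKO libraries and 24.0 to 33.99 FPKM in WT libraries. S100a8 was at 3.08, 17.5 and 27.7 FPKM in Bach2-cKO libraries and 3.94 to 5.14 FPKM in WT libraries. S100a9 was at 2.73, 26.4 and 28.0 FPKM in Bach2-cKO libraries and 4.81 to 6.79 FPKM in WT libraries. For NK cells, Klra4, Klra8 and Klrb1c were under 1 FPKM in each library, and the 6 NK markers summed to 67.6 to 151.7 FPKM in Bach2-cKO libraries and 15.4 to 23.0 FPKM in WT libraries, with Gzma called higher. Of these sums, Gzma alone gave 56.6 to 136.8 FPKM in Bach2-cKO libraries and 8.59 to 13.96 FPKM in WT libraries. Eomes, the other NK marker tested, was not called (limma adjusted p = 0.0661). Both CD8 T cell markers, Cd8a and Cd8b1, were called higher, with sums of 53.8 to 99.3 FPKM in Bach2-cKO libraries and 40.2 to 44.2 FPKM in WT libraries. The 6 dendritic cell markers summed to 20.2 to 25.9 FPKM in Bach2-cKO libraries and 22.3 to 27.4 FPKM in WT libraries. Of 4 tested, Flt3 was called lower and 3 were not called. Of 7 erythroid markers none passed the test (0 also at an unadjusted p under 0.05), with sums of 212 to 1055 FPKM in Bach2-cKO libraries and 185 to 532 FPKM in WT libraries. Of 8 Treg markers, Il2ra rose and Nrp1, Lrrc32 and Ikzf4 fell, with a median log2 difference of -0.27. Their sums were 1630 to 1908 FPKM in Bach2-cKO libraries and 1368 to 1682 FPKM in WT libraries. Of these sums, Ctla4 gave 609 to 717 FPKM and Il2ra 458 to 502 FPKM in Bach2-cKO libraries. In WT libraries they gave 454 to 598 FPKM and 230 to 301 FPKM.

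The genes closest to Nfkbia in pattern, by the Euclidean distance between centred log2(FPKM + 1) values over the 6 libraries, were Stk38, Ing1 and Acaa2, at distances of 0.071, 0.073 and 0.078. Stk38 was at 173, 171 and 188 FPKM in Bach2-cKO libraries and 227, 242 and 214 FPKM in WT libraries. The closest to Bcl3, the gene with the largest positive difference in the family, were C430042M11Rik, Hist1h4i and Trav14-3, at distances of 0.11, 0.15 and 0.15. Hist1h4i, a histone gene, was at 13.6, 12.3 and 7.72 FPKM in Bach2-cKO libraries and 10.3, 10.4 and 11.5 FPKM in WT libraries. These genes were picked for their likeness to Bcl3 over the same 6 libraries, so a low Bach2-cKO replicate 3 in them is not a separate result.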

How the data were processed

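Poly(A) RNA of 6 libraries of stimulated splenic Tregs, 3 Bach2-cKO and 3 WT, was measured. The submitters' processing notes name the aligner HISAT2 2.0.5, the counter featureCounts 1.5.0-p3 and the build mm9. Annotation and use of strand: not given in the sources. The authors deposited FPKM per gene and library, and the per-library files equal the columns of the series table in 6 of 6 cases. Gene positions equal GENCODE M21 on GRCm38 for 91.5% of shared identifiers, so positions are given as GRCm38. The build in the notes differs. FPKM is relative to each library's own total.

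The filter kept genes that reached 1 FPKM in 3 or more libraries. Tests ran on log2 of FPKM after adding 1, in limma 3.58.1 with a trended prior (R 4.3.3), Bach2-cKO against WT without covariates, two-sided, Benjamini-Hochberg adjusted over 13766 genes at a threshold of 0.05. SE and intervals are on this scale, which slightly understates changes. Because the values are FPKM and not counts, a linear model was the main test. FPKM values were whole multiples of what 1 read is worth (tolerance 0.001 reads, 100% of 28530 genes above 0), at the shortest gene length that gave whole reads where the annotated one did not. The recovered reads gave totals and a limma-voom alternative, with reads per gene as lower bounds. The tests were checked on simulated reads. Motifs were searched in RefSeq windows. Figures used Matplotlib 3.10.9.

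Members, lists and tests were chosen with earlier results of these data known. A gene of the antigen receptor module is not reported here and is left out of the list counts. Named are all 10 family genes, up to 4 genes of each pathway list with the smallest p, and the 3 genes nearest in pattern to the members with the largest rise and fall. Any other gene, markers included, was named after its values were seen. Alternatives were median-ratio scaling, limma-voom, no filter, a filter of 5 FPKM, adding 0.1 before the log, a block for replicate number, a B cell score (mean centred log2 level of 17 markers) as covariate, and leaving out each library.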

Additional observations from a re-analysis of the deposited data

How the results depend on the processing

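Of the 10 family genes, 2 were called lower with all libraries. The count was 1 with median-ratio scaling, 1 with no filter on low values and 0 with the B cell score as covariate, and ranged from 1 to 3 with 1 library left out. The count of family genes called higher, 0 with all libraries, ranged from 0 to 1. Nfkbia kept its call in 12 of 13 alternatives and Rela in 4 of 13, with a negative sign in all 13 for both. Over all tested genes, 967 were higher and 1144 lower. These counts were 501 and 681 with no filter, where 28530 genes are tested, and 103 and 117 with the B cell score, which takes 1 residual degree of freedom and differs between the groups. With 1 library left out they ranged from 492 (without Bach2-cKO replicate 2) to 1224 (without Bach2-cKO replicate 3) and from 560 (without WT replicate 1) to 1375 (without Bach2-cKO replicate 3). Among genes that were not called, the log2 difference of Nfkbie was -0.088 with the B cell score, and with 1 library left out that of Rel ranged from -0.021 to 0.046, that of Nfkbib from -0.11 to 0.009 and that of Bcl3 from -0.046 to 0.29. The cause was not tested.

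The labels do not say whether the replicate numbers pair the libraries. Deviations from the group means correlated at -0.053, 0.006 and -0.22 for numbers 1, 2 and 3. No library correlated best with the library of its own number. With 3 libraries per group these correlations cannot decide whether there is a weak pairing. With the replicate block, 1 family gene was called lower (Nfkbia, adjusted p = 0.0485), and over all tested genes 625 were higher and 657 lower.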
